A study of Mus musculus with 43 samples.

Results

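The interaction of homozygous PiZ and LIRKO was measured in 17 livers of the 43 samples of the series, over 13690 of the 13741 genes of their table. PiZ mice carry the human Z allele of alpha-1-antitrypsin, and ZZ marks the homozygous transgene. In LIRKO mice the insulin receptor gene is deleted in hepatic tissue. The groups were ZZ LIRKO (7 mice, transgene and receptor loss), ZZ (3 mice, transgene alone), LIRKO (4 mice, receptor loss alone) and WT (3 mice, neither). All were male mice of a C57BL6/J x FVBN background, 4 to 5 months old, and whole liver RNA was sequenced. Each library came from a separate mouse. The driver of the receptor deletion is not given in the sources used here, and the transcript of the human transgene was not analysed here.

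Members were all genes with at least 0 log2 CPM (read counts scaled to a common library size) in 3 or more libraries. For each gene the interaction is the difference of 2 LIRKO effects on the log2 scale, namely ZZ LIRKO minus ZZ, less LIRKO minus WT. A value of 0 means that receptor loss moved the gene by the same factor with and without the transgene. A value below 0 means that the gene was moved less far up, or further down, in ZZ livers, and a value above 0 the converse. The comparison asks whether the liver's response to loss of insulin signalling depends on the transgene.

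The Z variant of alpha-1-antitrypsin folds poorly, and much of it stays in the endoplasmic reticulum of hepatocytes as polymers. Such livers are known for proteotoxic stress, regeneration, a ductular reaction and fibrosis. Insulin acts on hepatocytes through its receptor and AKT, which holds the transcription factor FOXO1 out of the nucleus. When the receptor is lost, FOXO1 targets such as Igfbp1 are transcribed and lipogenic genes are transcribed less.

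The libraries held 38177840 to 90092990 recovered reads. Summed levels of 8 hepatocyte markers were 73490 to 99870 CPM in ZZ LIRKO, 60680 to 82970 in ZZ, 60890 to 82640 in LIRKO and 125800 to 136300 in WT livers. Prss2, a pancreatic trypsinogen, stood above 0 log2 CPM in ZZ mouse 1846 (1.04) and in WT mice 1586 (5.87) and 1601 (0.88), and at or below -2.02 in the other libraries. WT mouse 1564 stood apart from the other WT livers: its male-biased liver genes summed to 35680 CPM, against 9505 and 11380 CPM, and its female-biased ones to 195 CPM, against 2562 and 2739 CPM. ZZ LIRKO mice 1876 and 1877 stood apart in a clock value (the mean of 5 evening genes minus the mean of 5 morning genes), at -1.90 and -0.35, against 1.95 to 3.45 in the other ZZ LIRKO livers. The same value was -1.15 to 1.70 in ZZ, 2.31 to 4.29 in LIRKO and -0.97 to 1.60 in WT livers.

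Receptor loss was visible in Insr itself (chr8:3122061-3279617, minus strand, GRCm38). Insr ranged over 5.44, 5.73 and 5.87 log2 CPM (lowest, median, highest) in ZZ LIRKO livers, against 6.40, 6.42 and 6.66 in ZZ livers. It stood at 5.91, 5.60, 5.48 and 5.93 log2 CPM in LIRKO livers, against 6.96, 6.94 and 7.14 in WT livers. Every liver of both LIRKO genotypes lay below every liver with the receptor gene intact. The fall was 0.79 on the log2 scale in ZZ and 1.28 in non-transgenic livers, and the interaction of 0.49 ± 0.16 (SE) did not pass (limma adjusted p = 0.0752). Without ZZ LIRKO mouse 1783 it was 0.53 and passed (limma adjusted p = 0.0424). Foxo1 itself did not pass any of these comparisons, and its interaction was 0.55 ± 0.37 (limma adjusted p = 0.367).

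Of the 13690 genes, 1061 (7.75%) had an interaction that differed from 0 (limma, Benjamini-Hochberg adjusted p under 0.05). It was above 0 for 415 genes (3.03%) and below 0 for 646 (4.72%), and 24.7% of all genes had an unadjusted p under 0.05. The median interaction of all genes was 0.01. The LIRKO effect in ZZ livers passed for 26.8% of genes (13.2% higher, 13.6% lower), and that without the transgene for 27.8% (13.8% higher, 14% lower). ZZ livers differed from WT livers in 30.3% of genes (16.1% higher, 14.2% lower). ZZ LIRKO livers differed from LIRKO livers in 10.6% (6.83% higher, 3.73% lower). The count of 1061 fell to 400 genes without ZZ mouse 1682, 549 without ZZ mouse 1809, 689, 660 and 588 without LIRKO mice 1468, 1474 and 1483, and 654 without WT mouse 1586. Without the 3 libraries that held Prss2, which leaves 2 ZZ livers and 1 WT liver, 304 genes passed. Of 84 calls on named genes that could be recomputed there, 60 were lost and none changed sign.

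**Figure D1:**
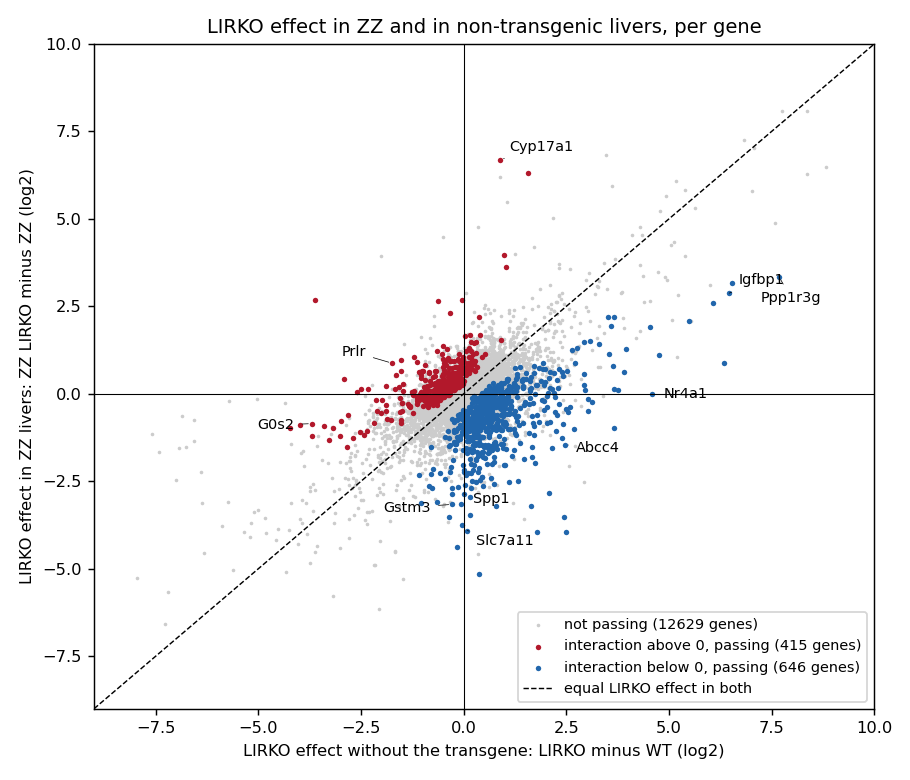
Each point is 1 gene: the vertical axis gives ZZ LIRKO minus ZZ and the horizontal axis LIRKO minus WT, both as log2 differences of group means, and the dashed line marks equal effects. The 646 passing genes with an interaction below 0 lie below the line, mostly to the right of or under the origin, and the 415 above 0 lie above it.

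The passing genes took a few shapes. These shapes are built from the same livers as the interaction, so their counts describe it and add no evidence. Of the 646 genes below 0, 244 had a rise with receptor loss that passed only where the transgene was absent. A further 270 fell with receptor loss in ZZ livers without passing in non-transgenic ones, and 63 rose in non-transgenic livers but fell in ZZ livers. The other 69 comprised 39 that rose in both, 7 that fell in both and 23 that passed in neither. Of the 415 genes above 0, 221 had a fall with receptor loss that passed only in the absence of the transgene. Another 133 had a rise that passed only in ZZ livers, and 21 fell without the transgene but rose with it. Among genes below 0, 596 were also higher in ZZ than in WT livers and none was lower, and among genes above 0, 369 were lower in ZZ than in WT livers and none was higher.

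Igfbp1 (chr11:7197782-7202546, plus strand), a secreted binding protein of insulin-like growth factors, was raised by either mutation. Its levels were 10.52, 11.47 and 12.26 log2 CPM (lowest, median, highest) in ZZ LIRKO and 8.47, 9.03 and 7.88 in ZZ livers. They were 11.28, 10.69, 10.26 and 11.31 in LIRKO and 5.11, 3.59 and 4.54 in WT livers. All WT livers lay lowest, ZZ livers lay between, and ZZ LIRKO and LIRKO livers overlapped at the top. Receptor loss raised Igfbp1 7.36-fold in ZZ and 88.5-fold in non-transgenic livers, an interaction of -3.59 ± 0.57 (SE, 95% interval -4.80 to -2.37, limma adjusted p = 0.00227). The RefSeq window around its start (chr11:7197537-7197836, plus strand, GRCm38.p6, 250 bases before to 50 after the start) is shown because Igfbp1 is a textbook target of FOXO1. Capitals mark matches to TNTTTTG, the insulin response element, on either strand; a match occurs in 18.64% of 32851 such windows, and it describes letters, not a bound site.
Igfbp1: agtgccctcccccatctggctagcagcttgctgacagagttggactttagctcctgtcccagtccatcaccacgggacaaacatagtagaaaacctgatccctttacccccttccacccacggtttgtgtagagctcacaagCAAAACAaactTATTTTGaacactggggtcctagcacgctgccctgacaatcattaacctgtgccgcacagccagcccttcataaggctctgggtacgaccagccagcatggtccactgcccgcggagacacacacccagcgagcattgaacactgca

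Over all genes, 3.03% passed above 0 and 4.72% below 0. Of 21 measured FOXO1-activated and gluconeogenic genes, 2 passed above 0 (Sesn1 and Apoc3) and 3 below 0 (Igfbp1, Trib3 and Gadd45a). The list's median interaction was -0.12. The counts became 0 and 2 without ZZ mouse 1682 and 1 and 2 without ZZ mouse 1809, LIRKO mouse 1468, 1474 or 1483, or WT mouse 1564 or 1601. Trib3, a pseudokinase that binds AKT, ranged over 4.60, 5.02 and 5.76 log2 CPM in ZZ LIRKO livers, against 5.75, 6.54 and 5.58 in ZZ livers. It stood at 4.71, 4.83, 4.68 and 5.31 in LIRKO livers, against 2.50, 2.69 and 3.35 in WT livers. Receptor loss thus raised Trib3 without the transgene (2.04 log2, limma adjusted p = 8.61e-05) and lowered it by a smaller step in ZZ livers (-0.84, adjusted p = 0.0207). Its interaction was -2.88 ± 0.38 (limma adjusted p = 0.000605). Ppp1r3g, a glycogen-targeting subunit of protein phosphatase 1, was the only one of 18 genes of glucose uptake, glycolysis and glycogen to pass. Its levels were 3.46, 5.33 and 7.0 log2 CPM in ZZ LIRKO, 1.21, 2.33 and 2.42 in ZZ, 7.08, 5.90, 6.25 and 6.46 in LIRKO, and -1.0, -1.70 and -1.06 in WT livers. Both LIRKO genotypes lay above their partners without overlap, by 3.35 log2 in ZZ and 7.68 log2 in non-transgenic livers (interaction -4.32 ± 0.97, limma adjusted p = 0.0151). Its lowest ZZ LIRKO values were those of mice 1876 and 1877, and the interaction was -4.05 without the first of these mice, -4.01 without the other and -3.53 with the clock value as a covariate, passing each time. It did not pass with log2(CPM + 1) (-2.87, limma adjusted p = 0.0676), voom weights (limma adjusted p = 0.3001) or the Prss2 libraries left out (limma adjusted p = 0.164).

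AP-1 and immediate early genes answer growth and stress signals within minutes. Of 17 measured, 7 (41.2%) passed below 0, against 4.72% of all genes, and none above 0 (median interaction -0.93). Ier3, an early response gene that limits cell death, ranged over 1.99, 2.60 and 3.09 log2 CPM in ZZ LIRKO livers, against 2.72, 2.21 and 1.96 in ZZ livers. It stood at 3.10, 2.98, 2.94 and 2.62 in LIRKO livers, against -0.41, 0.55 and -0.20 in WT livers. The 3 mutant genotypes overlapped and WT livers lay apart below them (interaction -2.66 ± 0.37, limma adjusted p = 0.000906). Fos, an AP-1 subunit, was 2.23 log2 higher in LIRKO than in WT livers and differed by -0.09 between ZZ LIRKO and ZZ livers (interaction -2.32 ± 0.59, limma adjusted p = 0.0263). Nr4a1, an orphan nuclear receptor induced as an early gene, had the most negative interaction among passing genes with names that averaged at least 2 log2 CPM (-4.61 ± 1.18, limma adjusted p = 0.0273): 4.60 log2 without the transgene and -0.01 with it. Atf3, a stress-induced AP-1 partner, and Myc, a growth regulator, each had -2.28, and both fell with receptor loss in ZZ livers (-1.60 and -1.30 log2). Myc did not pass without ZZ mouse 1682 or WT mouse 1601. The count of 7 became 2 without ZZ mouse 1682, 3 without LIRKO mouse 1468, 4 without LIRKO mouse 1483, 3 without WT mouse 1586 or 1601, and 1 without the Prss2 libraries. Nr4a1 no longer passed without ZZ mouse 1682 or 1809, LIRKO mouse 1468, or WT mouse 1586 or 1601, and Fos without ZZ mouse 1682 or 1846, LIRKO mouse 1468 or 1483, or WT mouse 1586 or 1601.

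Cd63, a tetraspanin of endosomes and lysosomes, ranged over 4.36, 5.33 and 5.79 log2 CPM in ZZ LIRKO livers, against 5.58, 5.74 and 5.20 in ZZ livers. It stood at 5.07, 5.76, 4.99 and 4.51 in LIRKO livers, against 2.24, 1.88 and 1.78 in WT livers. WT livers were again the only ones apart, and the interaction was -3.34 ± 0.43 (limma adjusted p = 0.000565). Ifi27l2b, an interferon-inducible gene, had an interaction of -3.07, and Ttc39a, a tetratricopeptide repeat gene, one of -2.93. Ly6d, a surface protein of the Ly6 family, took another shape, with 3.89 to 7.56 log2 CPM in ZZ LIRKO, 6.42 to 8.14 in ZZ, 1.44 to 3.26 in LIRKO and -0.82 to 1.72 in WT livers. It had -3.69 ± 1.05 (limma adjusted p = 0.0415), and did not pass without ZZ LIRKO mouse 1783, 1813 or 1876, ZZ mouse 1682 or 1809, LIRKO mouse 1474, 1483 or 1600, or WT mouse 1564 or 1586.

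Igf2bp3, a fetal RNA-binding protein re-expressed in liver tumours, was raised 5.49 log2 by receptor loss without the transgene and 2.09 log2 in ZZ livers (interaction -3.40 ± 0.68, limma adjusted p = 0.0078; 0.0516 with voom weights). It ranged over 0.43, 1.77 and 2.44 log2 CPM in ZZ LIRKO livers, against 0.10, 0.37 and -1.95 in ZZ livers. The LIRKO livers held 3.81, 3.64, 3.29 and 3.09 log2 CPM, above every ZZ LIRKO liver, and the WT livers -1.91, -2.37 and -1.81. Adam11, a catalytically inactive member of the ADAM family, rose with receptor loss in non-transgenic livers (2.40 log2) and fell in ZZ livers (-1.25 log2). Its levels were 1.86, 3.32 and 5.09 log2 CPM in ZZ LIRKO, 4.53, 4.63 and 4.77 in ZZ, 6.01, 5.01, 5.79 and 5.26 in LIRKO, and 3.50, 2.82 and 3.03 in WT livers. ZZ LIRKO livers overlapped every other group, and the interaction was -3.65 ± 0.66 (limma adjusted p = 0.00477).

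**Figure D2:**
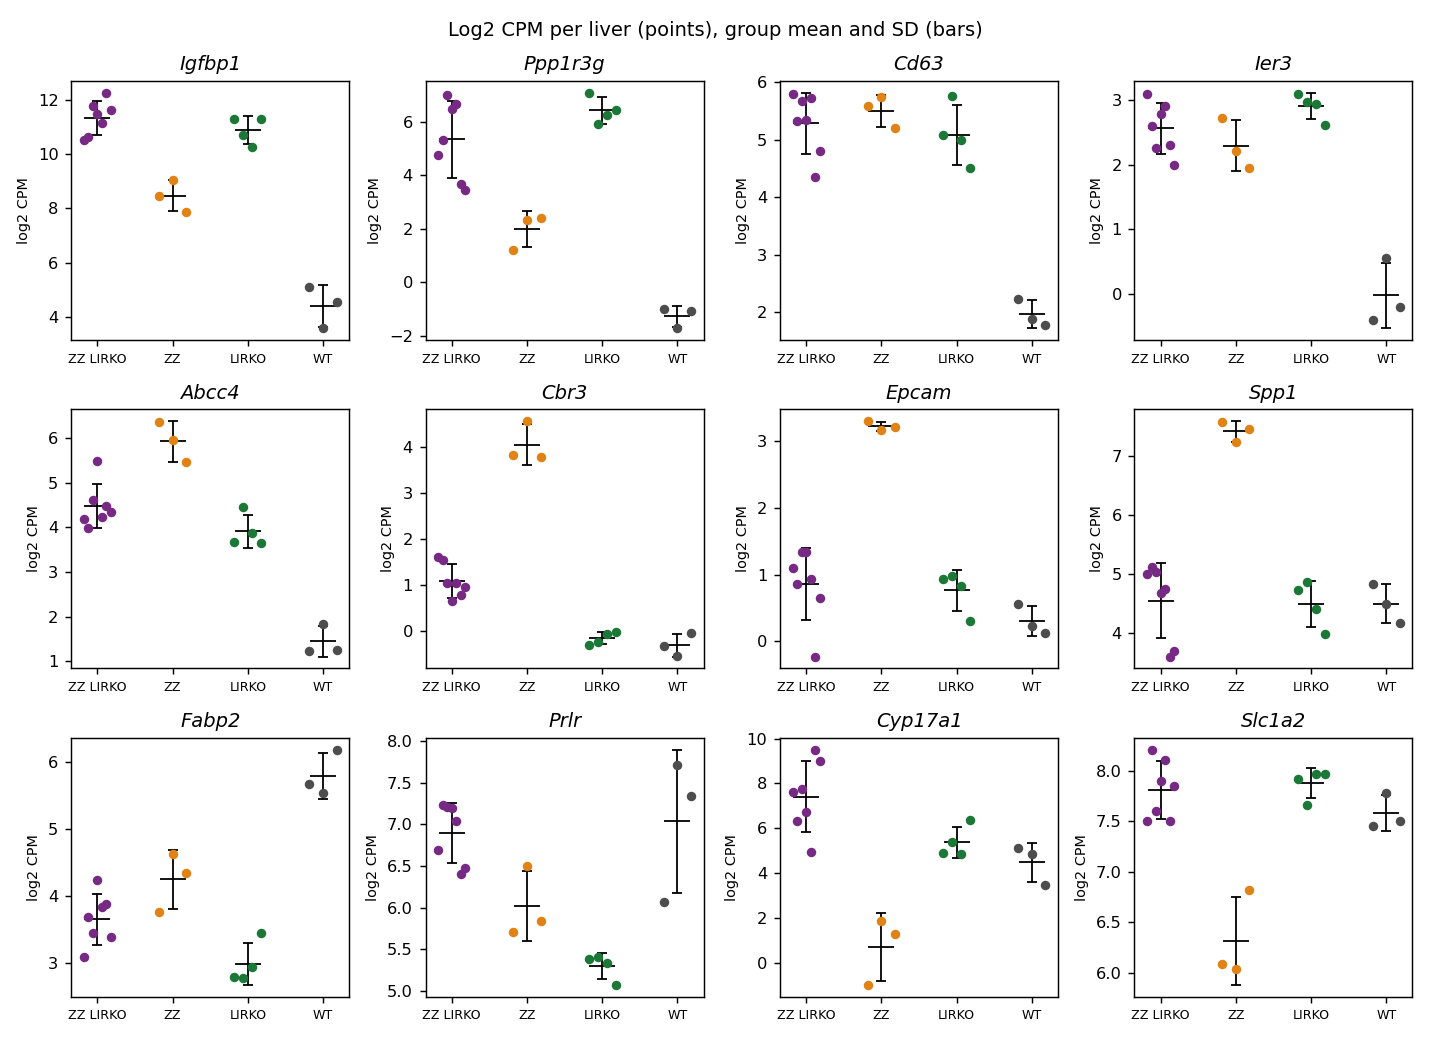
Log2 CPM (vertical axis) of 12 genes in each liver (points), with the group mean and SD as bars, for ZZ LIRKO, ZZ, LIRKO and WT livers. Igfbp1, Ppp1r3g, Cd63 and Ier3 are low only in WT livers or lowest there; Cbr3, Epcam and Spp1 are high only in ZZ livers; Cyp17a1 and Slc1a2 are low in ZZ livers.

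NRF2, a transcription factor freed from KEAP1 by oxidants and electrophiles, drives glutathione and detoxification enzymes. Of 22 measured NRF2 targets, 10 (45.5%) passed below 0, against 4.72% of all genes, and none above 0. The list's median interaction was -1.03. In ZZ against WT livers 13 of the 22 were higher, against 16.1% of all genes. In ZZ LIRKO against ZZ livers 12 were lower, against 13.6% of all genes. Cbr3, a carbonyl reductase, ranged over 0.66, 1.04 and 1.60 log2 CPM in ZZ LIRKO livers, against 3.82, 4.55 and 3.77 in ZZ livers. It stood at -0.29, -0.23, -0.05 and -0.02 in LIRKO livers, against -0.32, -0.53 and -0.03 in WT livers. ZZ livers lay far above the rest, ZZ LIRKO livers next, and LIRKO and WT livers overlapped (interaction -3.10 ± 0.33, limma adjusted p = 0.000171).

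Srxn1, which reduces oxidised peroxiredoxins, ranged over 6.25, 6.60 and 6.74 log2 CPM in ZZ LIRKO livers, against 7.96, 7.81 and 7.55 in ZZ livers. It stood at 5.47, 6.04, 5.45 and 5.42 in LIRKO livers, against 5.03, 5.49 and 5.43 in WT livers. The order matched Cbr3, and the interaction was -1.51 ± 0.22 (limma adjusted p = 0.00117). Its RefSeq window (chr2:152105274-152105573, plus strand, GRCm38.p6) is shown because it alone, of 9 passing and 9 other NRF2 targets with a window, held TGANTCAGC, a form of the antioxidant response element. Capitals mark it; on both strands it is found in 1.19% of the 32851 windows, and it contains the AP-1 letters TGANTCA. The looser form TGACNNNGC, found in 12.39% of windows, was present in 2 of the 9 passing targets (Srxn1 and Abcc4) and 4 of the 9 others.
Srxn1: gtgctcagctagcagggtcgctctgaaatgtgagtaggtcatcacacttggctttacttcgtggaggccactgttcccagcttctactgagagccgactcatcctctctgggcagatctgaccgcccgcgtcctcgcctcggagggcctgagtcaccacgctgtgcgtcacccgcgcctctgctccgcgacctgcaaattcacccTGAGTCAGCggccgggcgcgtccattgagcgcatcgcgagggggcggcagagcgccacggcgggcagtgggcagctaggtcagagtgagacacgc

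Gstm3, a glutathione transferase of the mu class, reached 6.20, 7.27 and 7.65 log2 CPM in ZZ LIRKO, 10.46, 10.59 and 9.80 in ZZ, 5.46, 6.59, 5.71 and 5.06 in LIRKO, and 6.48, 5.88 and 5.58 in WT livers. Receptor loss lowered it 8.92-fold in ZZ livers and changed it by -0.28 log2, not passing, in non-transgenic ones (interaction -2.88 ± 0.52, limma adjusted p = 0.00454). Gstm1 and Gstm4, paralogs that may share reads with it, had -1.25 and -1.39. Abcc4, an efflux transporter of bile acids and nucleotides, behaved differently from Cbr3. Its levels were 3.98, 4.35 and 5.50 log2 CPM in ZZ LIRKO, 6.37, 5.96 and 5.47 in ZZ, 3.67, 4.45, 3.88 and 3.66 in LIRKO, and 1.23, 1.84 and 1.26 in WT livers. Receptor loss raised Abcc4 by 2.47 log2 without the transgene and lowered it by 1.45 in ZZ livers (interaction -3.92 ± 0.41, limma adjusted p = 0.000171). Gpx2, a glutathione peroxidase, stood at 3.95, 3.21 and 1.22 log2 CPM in ZZ livers and at or below -0.42 in all other livers. It entered the test through those 3 ZZ livers alone and its WT values (-6.43, -3.65 and -3.47) lie near or under 3 reads, so its call carries no weight; the other 21 targets held 9 of the 10 calls. The NRF2 count of 10 became 5 without ZZ mouse 1682, 5 without ZZ mouse 1809 and 4 without the Prss2 libraries.

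ATF4 and CHOP act in the integrated stress response and drive amino acid transport and synthesis. Of 20 measured targets, 6 (30%) passed below 0, against 4.72% of all genes, and none above 0 (median -1.01). Slc7a11, the cystine transporter and also on the NRF2 list, ranged over 0.45, 1.42 and 2.47 log2 CPM in ZZ LIRKO livers, against 5.89, 5.29 and 4.76 in ZZ livers. In LIRKO livers it stood at -4.91, -5.12, -2.90 and -3.05, against -4.11, -4.14 and -4.0 in WT livers. These last 2 groups lie near the level of 3 reads (-4.64 to -3.40 log2 CPM over the libraries), so no change could be measured between them. Slc7a11 fell by 3.90 log2 in ZZ LIRKO against ZZ livers (interaction -3.99 ± 0.75, limma adjusted p = 0.0058). Slc3a2, its heavy-chain partner, and Aldh18a1, an enzyme of proline synthesis, had interactions of -1.40 and -2.26 and also fell with receptor loss in ZZ livers. No gene of 32 ER chaperones and other members of the unfolded protein response passed (limma, adjusted p under 0.05; median 0.05).

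Cholangiocytes line the bile ducts, and immature ductular cells share their markers in injured livers. Of 15 measured cholangiocyte markers, 11 (73.3%) passed below 0, against 4.72% of all genes, and none above 0, with a median of -1.44. The interaction was below 0 for 13 of the 15 markers, and for 6669 of all 13690 genes. The 4 markers that did not pass included Krt23, Sox9 and Pkhd1. Epcam, an epithelial adhesion molecule, ranged over -0.23, 0.94 and 1.34 log2 CPM in ZZ LIRKO livers, against 3.30, 3.16 and 3.21 in ZZ livers. It stood at 0.93, 0.99, 0.82 and 0.31 in LIRKO livers, against 0.56, 0.23 and 0.12 in WT livers. Only ZZ livers stood apart: with receptor loss Epcam was 5.16-fold lower in ZZ livers, and ZZ LIRKO and LIRKO livers overlapped (interaction -2.83 ± 0.40, limma adjusted p = 0.00103). Spp1, osteopontin, a secreted glycoprotein of ductular cells and macrophages, ranged over 3.61, 4.75 and 5.12 log2 CPM in ZZ LIRKO livers, against 7.57, 7.23 and 7.45 in ZZ livers. It stood at 4.73, 4.87, 4.42 and 4.00 in LIRKO livers, against 4.83, 4.50 and 4.17 in WT livers. Its interaction equalled its fall in ZZ livers, both -2.86 (limma adjusted p = 0.00227 for the interaction), and the difference without the transgene was 0.00. Slc5a1, a sodium-glucose cotransporter, had -2.50 ± 0.45 (limma adjusted p = 0.00457). Cldn4, a tight junction protein, entered the test only through its ZZ livers (1.22, 1.65 and 0.75 log2 CPM) and stood at or below -1.16 elsewhere, with WT livers near the level of 3 reads; the other 14 markers held 10 of the 11 calls. The keratins Krt7, Krt8, Krt18 and Krt19 lay between -1.92 and -1.06.

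The summed cholangiocyte markers were 506 to 917 CPM in ZZ LIRKO, 1151 to 1492 in ZZ, 552 to 704 in LIRKO and 389 to 540 in WT livers. The lowest 2 ZZ LIRKO values belonged to mice 1876 and 1877, and ZZ LIRKO livers stayed below every ZZ liver. Such a sum follows its most abundant members. In WT livers Spp1 stood at only 4.17 to 4.83 log2 CPM and Epcam at 0.12 to 0.56, so other markers made most of it. In whole liver, fewer cells of a type and less RNA per cell cannot be told apart, here and for the other marker lists. Which cells made the RNA of a marker was not measured either. The count of 11 became 6 without ZZ mouse 1682. It became 5 with a stricter filter of at least 1 log2 CPM in 7 libraries, which took Epcam, Slc5a1 and Cldn4 out of the test. The count was also lower without the Prss2 libraries, which leaves 1 WT liver.

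**Figure D3:**
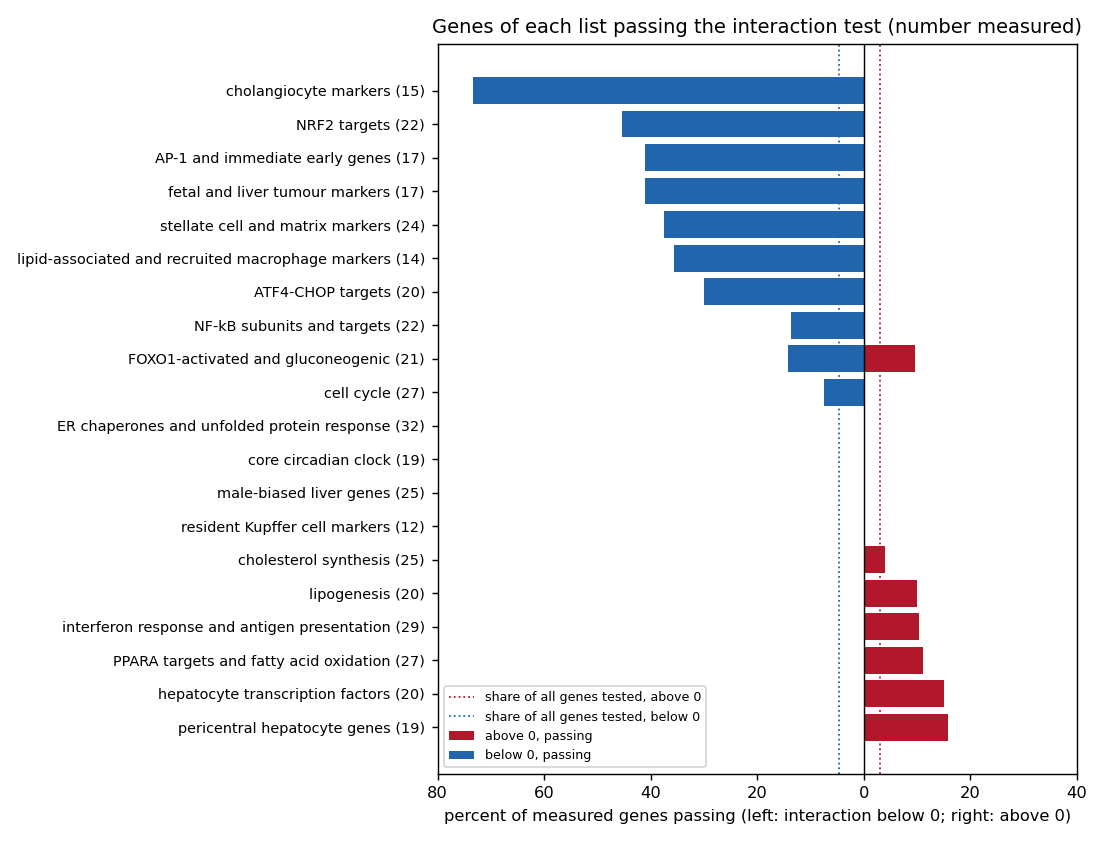
Horizontal bars give the percent of each list's measured genes (number in brackets) whose interaction passed, to the left for values below 0 and to the right for values above 0, with dotted lines at the shares of all genes (4.72% and 3.03%). Cholangiocyte markers reach 73.3% on the left, NRF2 targets 45.5%, and 4 lists have no passing gene.

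Against 4.72% of all genes, fetal and liver tumour markers passed below 0 in 7 of 17 measured genes (41.2%, median -1.50). Besides Igf2bp3, Epcam and Ly6d these were Sox4, a transcription factor of immature epithelium, Golm1, a Golgi membrane protein, Cd44, a hyaluronan receptor, and Akr1b7, an aldo-keto reductase. Sox4 ranged over 1.38, 2.28 and 2.81 log2 CPM in ZZ LIRKO livers, against 4.76, 4.28 and 4.23 in ZZ livers. It stood at 1.02, 0.94, 0.93 and 1.01 in LIRKO livers, against 1.47, 0.66 and 0.44 in WT livers. Sox4 therefore followed Cbr3 in its order of groups (interaction -2.37 ± 0.43, limma adjusted p = 0.0047), and Golm1 had -1.74 ± 0.33 (limma adjusted p = 0.00578). Scara3, a scavenger receptor induced by oxidative stress, was on no list and ranged over 1.0, 1.42 and 1.65 log2 CPM in ZZ LIRKO livers, against 4.32, 3.63 and 4.19 in ZZ livers. Its LIRKO livers held 1.70, 1.72, 1.68 and 1.41, and its WT livers 1.54, 1.73 and 0.21 (interaction -3.09 ± 0.38, limma adjusted p = 0.000565). Serpina7, thyroxine-binding globulin, had -3.03 ± 0.77 (limma adjusted p = 0.0263), with its lowest ZZ LIRKO values, 4.49 and 4.54 log2 CPM, in mice 1876 and 1877. It did not pass without ZZ mouse 1682 or 1809, LIRKO mouse 1468 or 1483, or WT mouse 1564. The fetal list's count of 7 became 4 without ZZ mouse 1682, LIRKO mouse 1474 or LIRKO mouse 1483, and 3 without the Prss2 libraries.

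Stellate cells make the collagen of liver scars. Of 24 measured stellate cell and matrix markers, 9 (37.5%) passed below 0, against 4.72% of all genes, and none passed above 0. All 24 had an interaction below 0 (median -0.65), as did 6669 of all 13690 genes. Col1a2, a chain of type I collagen, ranged over 4.35, 5.16 and 5.84 log2 CPM in ZZ LIRKO livers, against 6.63, 6.51 and 6.48 in ZZ livers. It stood at 3.42, 3.81, 3.84 and 3.84 in LIRKO livers, against 3.76, 3.13 and 3.31 in WT livers. ZZ LIRKO livers lay between ZZ and LIRKO livers without overlap (interaction -1.75 ± 0.42, limma adjusted p = 0.0195). Lum, a matrix proteoglycan, had -2.41 ± 0.51 (limma adjusted p = 0.0109) and Fbn1, fibrillin, -1.27 ± 0.26 (limma adjusted p = 0.00959). Summed matrix markers were 735 to 1154 CPM in ZZ LIRKO, 1228 to 1436 in ZZ, 596 to 658 in LIRKO and 513 to 560 in WT livers. The count of 9 became 3 without ZZ mouse 1682, 5 without ZZ mouse 1809, 4 without LIRKO mouse 1483, 3 without WT mouse 1586, 4 without WT mouse 1601, 5 with voom weights or with a clock covariate, and 1 without the Prss2 libraries. Col1a2 did not pass without ZZ mouse 1682 or WT mouse 1586.

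Of 14 markers of lipid-associated and recruited macrophages, 5 (35.7%) passed below 0, against 4.72% of all genes, and none above 0 (median -1.42). The 5 were Spp1, Cd63, Lgals3, Cx3cr1 and Cd68. Lgals3, galectin 3, ranged over 3.78, 4.22 and 5.35 log2 CPM in ZZ LIRKO livers, against 5.18, 5.21 and 5.44 in ZZ livers. It stood at 2.79, 2.92, 3.03 and 2.88 in LIRKO livers, against 2.11, 1.97 and 2.27 in WT livers. ZZ LIRKO mouse 1783 alone reached the ZZ range, and receptor loss raised Lgals3 without the transgene and lowered it with it (interaction -1.73 ± 0.34, limma adjusted p = 0.00764). The list's summed level was 214 to 504 CPM in ZZ LIRKO, 582 to 641 in ZZ, 176 to 205 in LIRKO and 124 to 144 in WT livers. Its count of 5 became 3 without ZZ mouse 1682 or 1809 and 1 without the Prss2 libraries.

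None of 12 resident Kupffer cell markers (median -0.10) and none of 13 lymphocyte markers (median -0.30) passed. Among 20 endothelial markers 1 (5%) passed, Oit3 at 0.75, near the 3.03% of all genes passing above 0. Receptor loss raised 14 of the 20 in ZZ livers, against 13.2% of all genes, and 5 in non-transgenic livers, against 13.8%. Of 4 measured neutrophil markers Retnlg passed below 0, with WT livers at -6.43, -2.76 and -7.17 log2 CPM, near or under the level of 3 reads, and its call was lost in 14 of the 17 single omissions. Of 22 NF-kB subunits and targets, Relb (-1.57), Icam1 (-0.92) and Il1b (-2.0) passed below 0 (13.6%, against 4.72% of all genes). Of 27 cell cycle genes, Cdc20 (-2.53) and Ccnb2 (-2.95), both of mitosis, passed below 0, while the list's median was -1.27. That cell cycle share of 7.41% was near the 4.72% of all genes. Receptor loss raised Icam1 and Il1b in non-transgenic livers and lowered Relb in ZZ livers, and the other effect did not pass. The NF-kB count became 0 without ZZ mouse 1682 and 1 without ZZ mouse 1809 or WT mouse 1586, and the cell cycle count 1 without ZZ mouse 1682 or 1809 and 4 without LIRKO mouse 1600 or WT mouse 1564. Neither list had a passing gene without the Prss2 libraries.

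**Figure D4:**
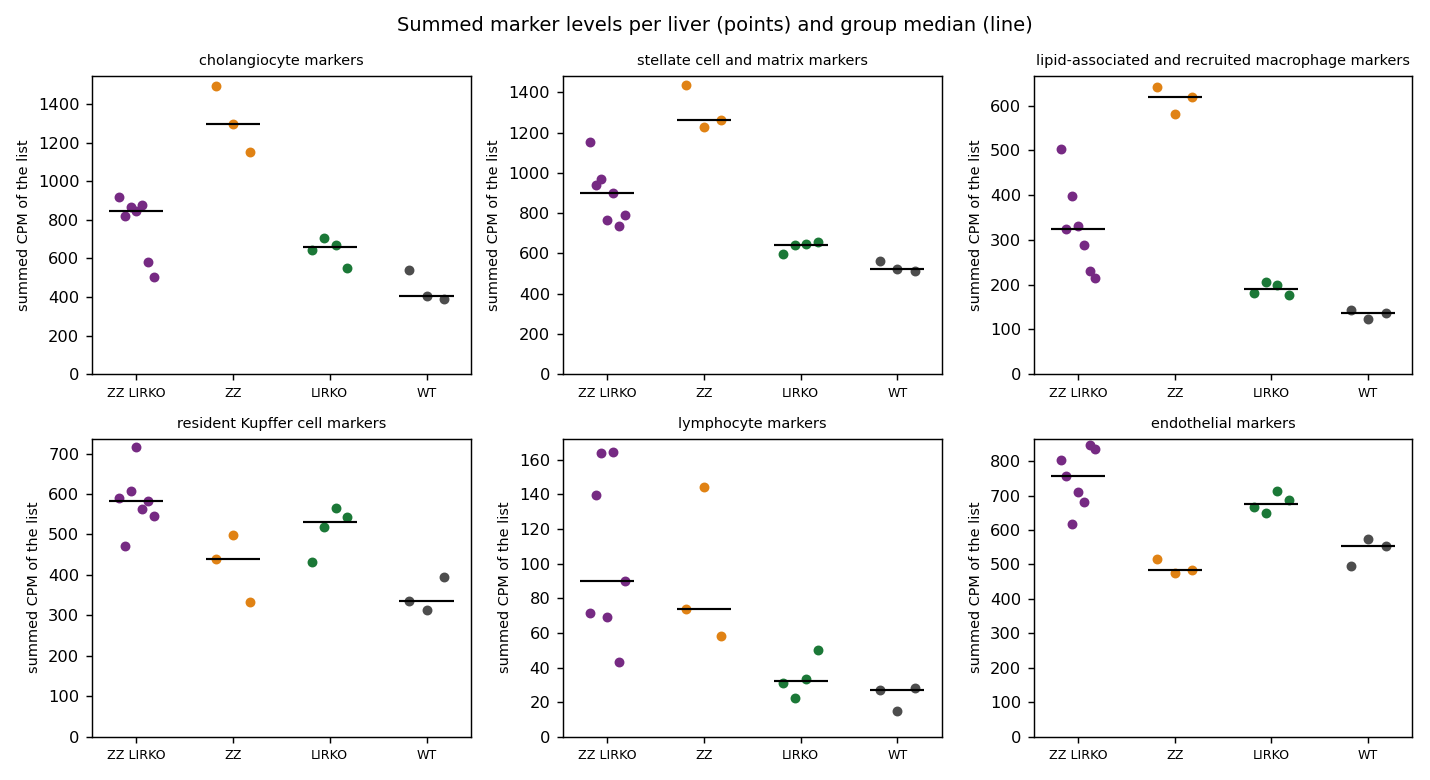
Summed CPM of 6 marker lists (vertical axis, from 0) in each liver (points) with the group median (line). Cholangiocyte, matrix and recruited macrophage markers are highest in ZZ livers and lower in every ZZ LIRKO liver; Kupffer cell and lymphocyte markers overlap between ZZ LIRKO and ZZ livers.

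Genes with an interaction above 0 included several whose fall with receptor loss passed only without the transgene. Fabp2, a fatty acid binding protein, ranged over 3.08, 3.69 and 4.24 log2 CPM in ZZ LIRKO livers, against 3.76, 4.63 and 4.35 in ZZ livers. It stood at 2.78, 2.76, 2.94 and 3.44 in LIRKO livers, against 5.68, 5.54 and 6.19 in WT livers. WT livers lay above the 3 mutant genotypes, and the fall was 2.82 log2 without the transgene and 0.60, not passing, with it (interaction 2.22 ± 0.35, limma adjusted p = 0.00216). G0s2, an inhibitor of the lipase ATGL, had 2.84 ± 0.66 (limma adjusted p = 0.0169) with 3.16 to 5.36 log2 CPM in ZZ LIRKO, 4.97 to 5.19 in ZZ, 3.60 to 4.12 in LIRKO and 6.51 to 8.19 in WT livers. Celsr1, a planar polarity cadherin, had 2.22, Slc25a30, a mitochondrial carrier, 1.94, and Fkbp5, a glucocorticoid-induced immunophilin, 2.19. In ZZ livers receptor loss changed G0s2 by -0.85, Celsr1 by -0.77, Slc25a30 by -0.19 and Fkbp5 by 0.55 log2, none of them passing. G0s2 no longer passed without ZZ mouse 1682, and Slc25a30 not without ZZ mouse 1809 or 1846, LIRKO mouse 1468, 1474 or 1483, or WT mouse 1586.

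Lifr, the receptor of leukemia inhibitory factor, was lower in all mutant groups than in WT livers. It ranged over 7.72, 8.34 and 8.67 log2 CPM in ZZ LIRKO livers, against 7.49, 7.43 and 7.96 in ZZ livers. It stood at 7.95, 7.94, 8.27 and 8.24 in LIRKO livers, against 9.96, 10.10 and 8.83 in WT livers (interaction 2.19 ± 0.37, limma adjusted p = 0.00307). Prlr, the prolactin receptor, ranged over 6.41, 7.04 and 7.23 log2 CPM in ZZ LIRKO livers, against 5.71, 6.49 and 5.84 in ZZ livers. It stood at 5.39, 5.41, 5.33 and 5.07 in LIRKO livers, against 6.07, 7.70 and 7.33 in WT livers. Receptor loss lowered Prlr without the transgene (-1.74 log2, limma adjusted p = 0.000806) and raised it in ZZ livers (0.88, adjusted p = 0.0304). Its interaction was 2.61 ± 0.42 (limma adjusted p = 0.00245), and WT mouse 1564 was the lowest WT liver. Prlr did not pass without the Prss2 libraries (limma adjusted p = 0.0685). Zap70, a kinase known from T cell receptor signalling, was low in LIRKO livers alone. It ranged over 3.25, 3.89 and 4.15 log2 CPM in ZZ LIRKO, 3.10, 3.77 and 3.60 in ZZ, 1.68, 1.86, 2.58 and 2.16 in LIRKO, and 4.57, 3.72 and 3.61 in WT livers (interaction 2.13 ± 0.37, limma adjusted p = 0.00402).

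Other genes above 0 were low in ZZ livers and higher in ZZ LIRKO livers. Cyp17a1, a steroid 17-alpha-hydroxylase, had the highest interaction of the named genes, 5.80 ± 1.21 (SE, 95% interval 3.24 to 8.36, limma adjusted p = 0.00978). It ranged over 4.95, 7.60 and 9.50 log2 CPM in ZZ LIRKO livers, against -0.98, 1.88 and 1.27 in ZZ livers. It stood at 4.88, 5.39, 4.84 and 6.36 in LIRKO livers, against 5.13, 4.84 and 3.48 in WT livers. ZZ livers lay below all others, and the rise with receptor loss was 103-fold in ZZ livers and 1.85-fold, not passing, without the transgene. The highest ZZ LIRKO levels, 9.50 and 9.01 log2 CPM, were those of mice 1876 and 1877. The interaction was 5.45 without mouse 1876, 5.53 without mouse 1877 and 4.74 with the clock value as a covariate, passing each time. Cyp17a1 did not pass with voom weights (limma adjusted p = 0.0528) or without the Prss2 libraries (limma adjusted p = 0.0574). Sult1e1, estrogen sulfotransferase, rose 6.31 log2 in ZZ livers and differed by 1.56, not passing, in others (interaction 4.74 ± 1.18, limma adjusted p = 0.0242). Both are on the list of 25 female-biased liver genes, of which 2 passed above 0 and 1, Atp6v0d2, below 0 (-1.87), and none of 25 male-biased genes passed. Sult1e1 did not pass without ZZ mouse 1682 or 1809, LIRKO mouse 1483 or WT mouse 1564. Without WT mouse 1564 the female-biased counts were 4 above 0 and 1 below 0, and the male-biased ones 0 and 3. With voom weights no female-biased gene passed, and without the Prss2 libraries 1 passed above and 4 below 0.

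Mfsd2a, a lysolipid transporter, had 3.26 ± 0.78 (limma adjusted p = 0.0195) and Nlrp12, an innate immune regulator, 2.63 ± 0.70 (limma adjusted p = 0.0322). Mfsd2a ranged over 3.97 to 6.77 log2 CPM in ZZ LIRKO, 2.16 to 3.82 in ZZ, 4.37 to 5.25 in LIRKO and 4.84 to 6.20 in WT livers, with ZZ livers below all others. Tent5c, a poly(A) polymerase, had 1.87 ± 0.41 (limma adjusted p = 0.0132), where ZZ livers (2.64 to 3.17 log2 CPM) overlapped LIRKO livers (3.05 to 3.35) below the rest. Mfsd2a did not pass without ZZ mouse 1682 or 1809 or WT mouse 1586, and Nlrp12 not without ZZ mouse 1682 or 1846, LIRKO mouse 1468, 1474 or 1483, or WT mouse 1586 or 1601.

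Among hepatocyte gene lists at most 3 members per list passed above 0. These were 15.8% of pericentral genes, 15% of hepatocyte transcription factors, 11.1% of PPARA and 10% of lipogenic genes, against 3.03% of all genes. Nearer to that share were bile acid and urea cycle genes (5.26% each) and cholesterol synthesis genes (4%). Of 19 pericentral genes 3 passed: Slc1a2, a glutamate transporter, Oat, ornithine aminotransferase, and Lhpp, a histidine phosphatase. Slc1a2 ranged over 7.50, 7.85 and 8.21 log2 CPM in ZZ LIRKO livers, against 6.09, 6.04 and 6.82 in ZZ livers. It stood at 7.92, 7.66, 7.97 and 7.97 in LIRKO livers, against 7.45, 7.78 and 7.50 in WT livers. Only ZZ livers lay apart, below the others (interaction 1.19 ± 0.26, limma adjusted p = 0.0137). Of 27 PPARA targets and genes of fatty acid oxidation, Cpt1a and Cpt2, the carnitine palmitoyltransferases, and Plin2, a lipid droplet coat protein, passed (1.04, 0.85 and 1.44). The hepatocyte transcription factors Foxa3 and Rxra passed (1.03 and 0.72), as did Stat2, Irf9 and Tap1 of 29 interferon and antigen presentation genes (0.84, 0.59 and 1.0), and Fga and Fgg, fibrinogen chains, of 24 acute phase genes (1.01 and 1.08), where Il1rn passed below 0 (-1.84). Slc10a1, the bile acid uptake transporter, passed among 19 bile acid genes (0.88), Nags among 19 urea cycle genes (0.80), Elovl5 and Nr1h3 among 20 lipogenic genes (1.21 and 0.61), and Ebp among 25 cholesterol synthesis genes (0.69, list median 0.55). None of 19 core clock genes passed (median -0.50).

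The PPARA count of 3 above and 0 below 0 became 12 and 0 without WT mouse 1564, 1 and 0 without ZZ mouse 1682 or 1809, LIRKO mouse 1468, 1474 or 1483, or WT mouse 1601, and 0 and 4 without the Prss2 libraries, where its median was -0.10 in place of 0.45. The pericentral count of 3 became 0 without ZZ mouse 1682, and 1 without ZZ mouse 1809, LIRKO mouse 1468, 1474 or 1483, or the Prss2 libraries, or with the clock value as a covariate. Cpt2, Stat2, Tap1 and Nr1h3 passed in each of the 17 single omissions. Slc1a2 did not pass without ZZ mouse 1682, and Oat, Lhpp, Cpt1a, Plin2, Foxa3, Rxra, Irf9, Fga, Fgg, Il1rn, Slc10a1, Nags, Elovl5 and Ebp each failed without that mouse and in 5 to 13 further omissions. Cela1 was the only one of 12 pancreas acinar markers to pass (1.61), and it did not pass in 10 of the 17 single omissions. None of the 12 had an interaction below 0 (median 5.30). LIRKO livers were lower than WT livers for 9 of them, against 14% of all genes. The list's summed level was 9.92 to 14.6 CPM in ZZ LIRKO, 13.6 to 43.9 in ZZ, 10.5 to 11.9 in LIRKO and 29.8 to 867 in WT livers.

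The mouse Serpina1 genes, the host's own alpha-1-antitrypsin, did not pass. The interaction was 1.61 ± 0.51 for Serpina1d (limma adjusted p = 0.0631), 2.29 ± 1.60 for Serpina1e (limma adjusted p = 0.397), 0.86 for Serpina1a, 0.78 for Serpina1b and 0.06 for Serpina1c. These near-identical copies share reads, so their single values are uncertain. Serpina1e spread from 4.96 to 11.56 log2 CPM among the 3 ZZ livers and from 10.41 to 14.22 among the WT livers. Serpina1d passed without ZZ mouse 1809 or 1846 or WT mouse 1586.

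The same contrast was computed with hemizygous mice, as Z LIRKO (4 mice) minus Z (5 mice), less LIRKO minus WT. The LIRKO and WT mice are the same animals in both tables, so the values are set side by side and no overlap is counted. Libraries of these 4 groups held 15519722 to 23938315 recovered reads, fewer than in the homozygous table. There, 27 of 13596 genes passed (0.199%; 0.0588% above 0, 0.14% below 0), and 10.2% had an unadjusted p under 0.05. The difference between the 2 interactions was not tested. Adam11 passed with hemizygous mice too (-2.38, limma adjusted p = 0.0234), against -3.65 with homozygous ones. Igfbp1 had -1.55 ± 0.87, Ppp1r3g -3.30 ± 1.55 and Gstm3 -1.50 ± 0.62 in hemizygous mice, none of them passing. Abcc4 (0.20), Spp1 (-0.03), Cbr3 (-0.15), Cyp17a1 (-0.08) and Prlr (-0.14) stood near 0 there. Slc25a30 had 2.18 and Zap70 1.28 in hemizygous mice, also not passing.

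**Figure D5:**
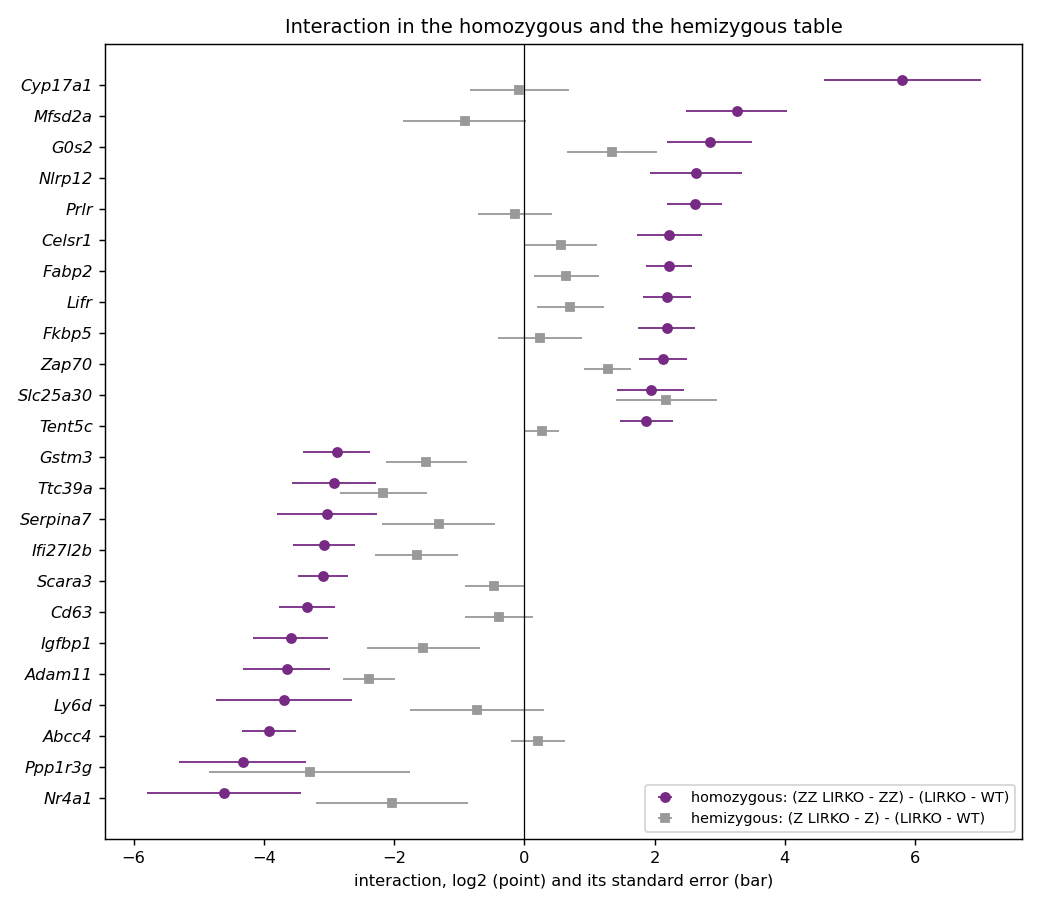
Interaction on the log2 scale (horizontal axis, point with its standard error) of the 12 genes with the largest values in each direction, for homozygous (circles) and hemizygous (squares) mice. Adam11 lies at -3.65 and -2.38, while Cyp17a1 lies at 5.80 and -0.08; Nlrp12 has no hemizygous value.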

How the data were processed

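Whole liver RNA was sequenced from each mouse. Per the submitters' processing notes the tools were STAR 2.0.4b, Subread and featureCounts 1.4.5, with build GRCm38. The authors deposited log2 CPM values per gene. These equal log2 of whole reads plus 0.5 over an effective library size. All but the highest values were checked for this, and each value checked gave whole reads within 0.01 reads. The homozygous table had 13796 lines, of which 55 repeated a gene. The number of columns of per-sample values left unused was 1, in the hemizygous table. The human transgene and withheld items are not reported here.

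Groups followed the labelled genotypes. limma 3.58.1 in R 4.3.3 was fitted on the deposited log2 values with 4 group means and variances that followed a trend, two-sided, with Benjamini-Hochberg adjustment over 13690 genes at 0.05. The procedure was tested on simulated data. Replicates were separate mice, and depth was 38177840 to 90092990 reads in genes. Genes named were the 12 with the largest passing interactions in each direction with a mean of at least 2 log2 CPM, up to 4 passing members of each list by p, and Insr, Foxo1 and the Serpina1 genes; further passing members of lists were named after their values were seen. The members and lists were chosen with earlier results of these data known, and the NRF2 and insulin response motifs after values were seen. Alternatives changed filters, scaling, weights, covariates and libraries.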

Additional observations from a re-analysis of the deposited data

Results flagged for a closer look

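Only ZZ LIRKO and LIRKO livers were examined for single outlying livers, and the smaller ZZ and WT groups were not. Single livers stood far from the rest of their group in 16 of 186 gene and group combinations examined. Chance gives about 1 in 20 per combination, but genes of the same liver are not independent. In ZZ LIRKO livers, mouse 1876 was highest for Fgg (12.99 log2 CPM, next 12.25), Fga (13.55, next 12.80) and Foxo1 (5.91, next 5.00), and it was lowest for Il1b (0.62, next 1.70). Mouse 1855 was the highest ZZ LIRKO liver for Abcc4 (5.50, next 4.62). In LIRKO livers, mouse 1600 was lowest for Mfsd2a (4.37, next 5.20), Scara3 (1.41, next 1.68) and Cldn4 (-3.60, next -1.68). The same mouse was highest for Cpt1a (9.40, next 9.09), Rxra (9.15, next 8.79), Nr1h3 (6.85, next 6.57) and Irf9 (5.34, next 4.98). LIRKO mouse 1474 was lowest for Slc1a2 (7.66, next 7.92) and highest for Srxn1 (6.04, next 5.47). LIRKO mouse 1468 was lowest for Col1a2 (3.42, next 3.81) and Atp6v0d2 (3.63, next 3.97).

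The LIRKO effect differed with the transgene for 1061 genes by the test of the interaction itself (limma, Benjamini-Hochberg adjusted p under 0.05). Among named genes, 9 had passing LIRKO effects of opposite sign. Prlr (interaction 2.61) and Nr1h3 (0.61) were raised in ZZ and lowered in non-transgenic livers. Fbn1 (-1.27), Lgals3 (-1.73), Slc5a1 (-2.50), Trib3 (-2.88), Adam11 (-3.65) and Abcc4 (-3.92) were lowered in ZZ and raised in non-transgenic livers. Cldn4 (-4.83) was also among the 9, but it entered the test through its 3 ZZ livers alone and its WT values lie near 3 reads, so its change in non-transgenic livers cannot be read. Without the libraries that held Prss2, the interaction no longer passed for Prlr (limma adjusted p = 0.0685), Nr1h3 (0.0559), Fbn1 (0.117), Lgals3 (0.0960) and Adam11 (0.0961).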

How the results depend on the processing

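The count of 1061 genes was 861 to 1138 under the alternatives that kept all libraries, namely other filters, log2(CPM + 1), TMM scaling, centring, voom weights, variances without a trend and the clock covariate. Without the libraries that held Prss2 it was 304, with 89 above and 215 below 0, of which 226 were among the 1061; the cause was not tested, and this leaves fewer samples. Leaving out each library in turn gave 400 to 1154 genes, 147 to 436 above and 253 to 718 below 0. Of 86 passing named genes, 44 passed in every single omission and 19 in every alternative run, and none changed sign. Without the Prss2 libraries 60 of their 84 calls were lost, and with all libraries kept 39 of 682. Serpina1c, which never passed, had 0.06 with all libraries and -0.393 to 0.507 over the single omissions, below 0 without ZZ LIRKO mouse 1858 (-0.013), ZZ mouse 1682 (-0.393) or WT mouse 1564 (-0.043). The median interaction of all genes stayed between 0.001 and 0.031. The planned count tests with edgeR and DESeq2 were not run. Of methods on the reads recovered from the deposited log values, voom weights and TMM scaling were run. No paired analysis was possible because the 4 groups hold different mice and share no replicate numbers. Small groups (3 ZZ and 3 WT livers) limit the precision, and levels under 3 reads cannot be compared.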
